A study of Mus musculus with 6 samples.

Results

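The neutrophil granule and maturation genes are 32 genes taken by symbol: 5 primary granule genes, 9 specific granule genes, 2 gelatinase granule genes, 11 genes of mature neutrophils, 3 genes shared with other myeloid cells and 2 transcription regulators of granule stages. All 32 were found among the 35458 gene models of RNA-seq libraries from CD8+ T cells of mouse spleen. The 3 KO libraries came from Cd4creGlut10fl/fl mice, in which Cd4cre and floxed Glut10 alleles are combined, and the 3 control libraries from mice with Cd4cre alone, so all 6 libraries carry the Cre. Cd4cre acts in developing T cells, not in neutrophils, and Glut10 is the product of the hexose transporter gene Slc2a10. The labels give no age, sex or treatment, nor whether each library is a separate animal, so the p-values below speak for the variation among these 6 libraries, part or all of which could be technical.

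Neutrophils build their granules in sequence while they mature in the bone marrow. Primary granules, loaded with myeloperoxidase and serine proteases, form in promyelocytes, specific granules with lactoferrin and cathelicidin form in the myelocyte and metamyelocyte stages, and gelatinase granules form last. The calgranulins S100a8 and S100a9 fill the cytosol of maturing and mature cells. CD8+ T cells are not a usual source of most of these transcripts.

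Values are FPKM, fragments counted per kilobase of exon and corrected for sequencing depth, so that levels of different genes can be set side by side. The total that each library was divided by, read back from the values, was 3420291, 14683394 and 3004540 fragments in KO 1, 2 and 3 and 11840640, 15020132 and 15036282 in control 1, 2 and 3. KO 1 and KO 3 stood apart in more than depth: among 814 protein-coding olfactory and vomeronasal receptor genes, which blood cells do not use, the 95th percentile was 5.18, 0.0946 and 5.80 FPKM in KO 1, 2 and 3 and 0.401, 0.162 and 0.209 FPKM in control 1, 2 and 3. Of the 32 neutrophil genes, 16, 1 and 12 lay under that percentile in KO 1, 2 and 3, and 0 in each control. Slc2a10, the targeted gene, had 0 implied reads in each KO library and 4, 2 and 2 in control 1, 2 and 3, too few to check the deletion. The T cell identity of the libraries was uneven: 10 of 10 T cell markers were detected throughout, and their summed level was 1467, 2268 and 1491 FPKM in KO 1, 2 and 3 and 1457, 449.9 and 344 FPKM in control 1, 2 and 3.

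Neutrophil transcripts were abundant in 2 control libraries and scarce in the other 4. Together the 32 genes made up 0.278%, 0.127% and 0.585% of all FPKM in KO 1, 2 and 3, against 0.670%, 5.70% and 9.88% in control 1, 2 and 3. Every one of the 32 had a lower mean log2 value in the KO libraries, and the median log2 difference over them, KO minus control on the log2(FPKM + 1) scale, was -3.03, where the median over the 16821 genes that averaged at least 1 FPKM was 0.24. Control 1 lay within the range of the 3 KO libraries for 20 genes and below all of them for 2. It was above all of them for 10, where 22.6% of all those genes were. The top of that range was mostly set by KO 3, the highest KO library for 26 of the 32. KO 2, the deepest KO library, lay below every control, control 1 included, for 28 of the 32, against 30.3% of all those genes. Control 1 lay below both control 2 and control 3 for 31 of the 32, against 25.5% of all those genes. KO 2 was the lowest of all 6 libraries for 22 of the 32, against 22.2%. In bulk RNA, fewer cells of a type and less RNA per cell cannot be told apart.

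No single gene passed the test. limma called 0 of 13956 genes at an adjusted p of 0.05, a background of 0%, and 1646 had an unadjusted p under 0.05. Of the 32 neutrophil genes 29 entered the test, 3 of them with at least 1 FPKM in no more than 1 KO library, and their limma adjusted p ran from 0.417 to 0.498. Every KO library lay below every control for 10 of the 32 genes, where 7.95% of all genes averaging at least 1 FPKM did so, and 0 of the 32 were above in the same way, against 6.42%. Those 10 were Cd177, Olfm4, Mmp8, Mmp9, Ly6g, Il1r2, Trem1, Itgam, Lyz2 and Anxa1, of which 0 are primary granule genes.

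**Figure D1:**
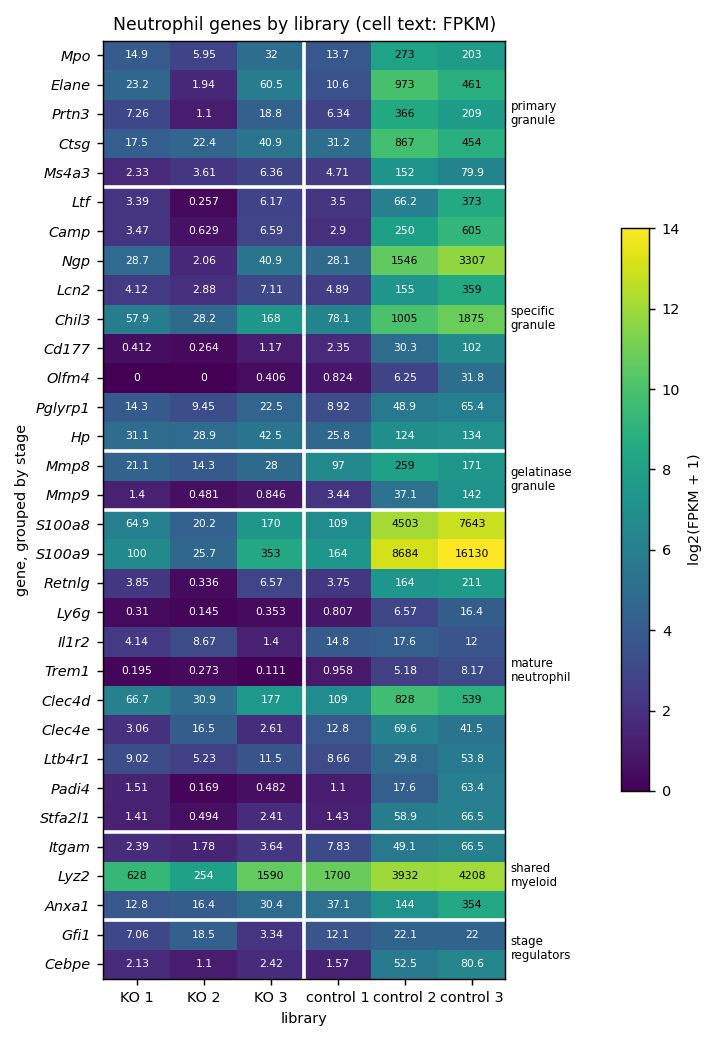
Level of each of the 32 neutrophil genes (rows, grouped by stage) in the 3 KO and the 3 control libraries (columns); colour is log2(FPKM + 1) and the cell text gives FPKM. Control 2 and control 3 are bright through most rows, S100a9 reaching 8684 and 16130 FPKM. Control 1 is dimmer and lies within the KO range for 20 rows, but stands above every KO column in rows such as Mmp8, at 97.0 FPKM.

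The outcome of the test turned on which libraries were in it. With control 1 left out, 15 of the 29 tested genes passed limma, all lower in KO, against 1.55% of all genes lower in that fit. Among the 15 were Cd177, Mmp9 and Padi4, which had at least 1 FPKM in no more than 1 KO library. They entered the test through the controls, where they are high. Without control 1, every KO library lay below control 2 and 3 for all 32 genes, against 15.4% of all genes. With control 2 and 3 left out, a comparison of the KO libraries with control 1 alone and therefore with no test, the median log2 difference over the 32 genes was -0.46. With KO 2 left out, 4 genes passed limma lower in KO, Gfi1, Mmp8, Il1r2 and Clec4e, where 0.96% of all genes did, and the median was -2.73. For Gfi1, Il1r2 and Clec4e the library left out was the highest KO library, at 18.5, 8.67 and 16.5 FPKM. In KO 1 and KO 3, Il1r2 and Clec4e lay under the 95th percentile of the sensory receptor genes, 5.18 and 5.80 FPKM, as did Gfi1 in KO 3. Against KO 2 alone, the deepest KO library, the median was -3.53 and 28 genes lay below every control, where 30.3% of all genes did. With KO 3 left out, 19 genes had both other KO libraries below the controls throughout, where 10.7% of all genes did.

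**Figure D2:**
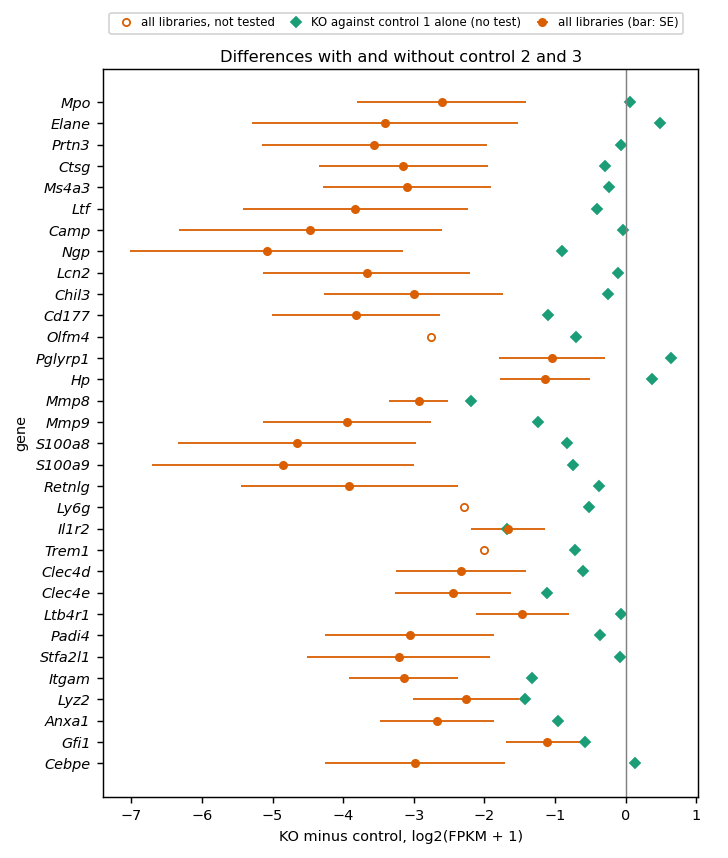
Log2 difference of each gene, KO minus control on the log2(FPKM + 1) scale, with all 6 libraries (circles with SE from limma; open circles were not tested) and with control 1 as the only control (diamonds). With all libraries each of the 32 lies below 0. Against control 1 alone they run from -2.19 for Mmp8 to 0.65 for Pglyrp1, with a median of -0.46 and Il1r2 at -1.68.

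The primary granule genes were the earliest stage. Mpo, the myeloperoxidase that makes hypochlorous acid, measured 14.9, 5.95 and 32.0 FPKM in KO 1, 2 and 3 and 13.7, 273 and 203 FPKM in control 1, 2 and 3. Elane, neutrophil elastase, measured 23.2, 1.94 and 60.5 FPKM in KO 1, 2 and 3 and 10.6, 973 and 461 FPKM in control 1, 2 and 3. In both genes control 1 lay inside the KO range and control 2 was the highest library. Prtn3, the proteinase next to Elane on chromosome 10, measured 7.26, 1.10 and 18.8 FPKM in KO 1, 2 and 3 and 6.34, 366 and 209 FPKM in control 1, 2 and 3. Ctsg, cathepsin G, measured 17.5, 22.4 and 40.9 FPKM in KO 1, 2 and 3 and 31.2, 867 and 454 FPKM in control 1, 2 and 3. For Ms4a3, a membrane protein of granulocyte precursors, the values were 2.33, 3.61 and 6.36 FPKM in KO 1, 2 and 3 and 4.71, 152 and 79.9 FPKM in control 1, 2 and 3. All 5 genes shared this order, with control 2 above control 3, KO 3 the highest KO library and control 1 within the KO range. The log2 differences of these genes ran from -3.56 for Prtn3 (SE 1.59) to -2.61 for Mpo (SE 1.19), with a limma adjusted p of 0.417 for both, and their median was -3.15, or -0.07 against control 1 alone.

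The 2 regulators had different patterns. Cebpe, the C/EBP family factor needed for specific granules, measured 2.13, 1.10 and 2.42 FPKM in KO 1, 2 and 3 and 1.57, 52.5 and 80.6 FPKM in control 1, 2 and 3, which is the pattern of the granule genes. Gfi1, a repressor needed for granulocyte maturation that T cells use as well, measured 7.06, 18.5 and 3.34 FPKM in KO 1, 2 and 3 and 12.1, 22.1 and 22.0 FPKM in control 1, 2 and 3. The KO 2 library, low in nearly all granule genes, was the highest KO library for Gfi1 and lay between control 1 and control 2. Their log2 differences were -2.99 for Cebpe (SE 1.28, limma adjusted p = 0.417) and -1.12 for Gfi1 (SE 0.58, limma adjusted p = 0.421).

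All 9 specific granule genes were highest in control 3 and next highest in control 2. Ngp, neutrophilic granule protein, measured 28.7, 2.06 and 40.9 FPKM in KO 1, 2 and 3 and 28.1, 1546 and 3307 FPKM in control 1, 2 and 3. Camp, the cathelicidin precursor of an antimicrobial peptide, measured 3.47, 0.629 and 6.59 FPKM in KO 1, 2 and 3 and 2.90, 250.3 and 605 FPKM in control 1, 2 and 3. Ltf, lactoferrin, which binds iron, measured 3.39, 0.257 and 6.17 FPKM in KO 1, 2 and 3 and 3.50, 66.2 and 373 FPKM in control 1, 2 and 3. These 3 genes, all on chromosome 9, had 7 to 150 implied reads in each KO library and 2850 to 60764 in control 2 and 3. In each of them control 1 lay inside the KO range, with KO 3 at its top and KO 2 below control 1. In KO 1, Camp and Ltf lay under the 95th percentile of the sensory receptor genes, 5.18 FPKM. In KO 3 they lay not far above it, at 5.80 FPKM. Lcn2, the siderophore-binding lipocalin, measured 4.12, 2.88 and 7.11 FPKM in KO 1, 2 and 3 and 4.89, 155 and 359 FPKM in control 1, 2 and 3. Chil3, a chitinase-like protein that some macrophages also make, measured 57.9, 28.2 and 168 FPKM in KO 1, 2 and 3 and 78.1, 1005 and 1875 FPKM in control 1, 2 and 3. The log2 difference of Ngp, -5.09 (SE 1.93, limma adjusted p = 0.417), was the most negative of the 32, and that of Camp was -4.46 (SE 1.86, limma adjusted p = 0.417).

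Cd177, a surface protein that is stored in specific granules, measured 0.412, 0.264 and 1.17 FPKM in KO 1, 2 and 3 and 2.35, 30.3 and 102 FPKM in control 1, 2 and 3. Olfm4, olfactomedin 4, measured 0, 0 and 0.406 FPKM in KO 1, 2 and 3 and 0.824, 6.25 and 31.8 FPKM in control 1, 2 and 3; 3 reads of this gene, the level that a count of 0 allows, would be 0.296 FPKM in KO 1 and 0.0690 FPKM in KO 2. For these 2 genes control 1 exceeded every KO library. Pglyrp1, a peptidoglycan-binding protein, measured 14.3, 9.45 and 22.5 FPKM in KO 1, 2 and 3 and 8.92, 48.9 and 65.4 FPKM in control 1, 2 and 3. Hp, haptoglobin, measured 31.1, 28.9 and 42.5 FPKM in KO 1, 2 and 3 and 25.8, 124 and 134 FPKM in control 1, 2 and 3. In both, control 1 was the lowest of all 6 libraries, and their log2 differences, -1.04 (SE 0.75) and -1.14 (SE 0.64), were among the least negative of the 32. The limma adjusted p was 0.498 for Pglyrp1 and 0.426 for Hp.

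Both gelatinase granule genes were lower in all KO than in all control libraries. Mmp8, neutrophil collagenase, which human neutrophils store in specific granules, measured 21.1, 14.3 and 28.0 FPKM in KO 1, 2 and 3 and 97.0, 259 and 171 FPKM in control 1, 2 and 3. Its mean was 21.1 ± 6.84 FPKM in KO and 176 ± 81.0 FPKM in control libraries (SD, n = 3 each). On the log2 scale it differed by -2.93 (SE 0.42, limma adjusted p = 0.417), and by -2.19 against control 1 alone. Mmp9, gelatinase B, measured 1.40, 0.481 and 0.846 FPKM in KO 1, 2 and 3 and 3.44, 37.1 and 142 FPKM in control 1, 2 and 3. The controls were more even for Mmp8 than for Mmp9: control 2 was 2.67-fold and control 3 was 1.76-fold above control 1 for Mmp8, against 10.8-fold and 41.4-fold for Mmp9. The Mmp9 values of KO 1 and KO 3 lay above the median of the sensory receptor genes in those libraries, 0.114 and 0.144 FPKM, but under their 95th percentile. Its level there was therefore not clearly set apart from that background.

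Calgranulins were the most abundant transcripts of the set in control 2 and 3, while in the other 4 libraries Lyz2 lay above both. S100a8 measured 64.9, 20.2 and 169.8 FPKM in KO 1, 2 and 3 and 109, 4503 and 7643 FPKM in control 1, 2 and 3. Its partner S100a9, which pairs with it as calprotectin and lies beside it on chromosome 3, measured 100.3, 25.7 and 353 FPKM in KO 1, 2 and 3 and 164, 8684 and 16130 FPKM in control 1, 2 and 3. S100a9 ranked 1 among all gene models in control 3 and 3 in control 2, against 314 in control 1 and 515, 2483 and 151 in KO 1, 2 and 3. The ratio of S100a9 to S100a8 stayed within 1.27 to 2.11 in all 6 libraries while the level of S100a8 varied from 20.2 to 7643 FPKM. The log2 difference was -4.65 for S100a8 (SE 1.68) and -4.85 for S100a9 (SE 1.86), both with a limma adjusted p of 0.417, and -0.83 and -0.75 against control 1 alone.

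Retnlg, resistin-like gamma, measured 3.85, 0.336 and 6.57 FPKM in KO 1, 2 and 3 and 3.75, 164 and 211 FPKM in control 1, 2 and 3. Stfa2l1, a stefin A type cysteine protease inhibitor, measured 1.41, 0.494 and 2.41 FPKM in KO 1, 2 and 3 and 1.43, 58.9 and 66.5 FPKM in control 1, 2 and 3. Padi4, the enzyme that citrullinates histones in extracellular traps, measured 1.51, 0.169 and 0.482 FPKM in KO 1, 2 and 3 and 1.10, 17.6 and 63.4 FPKM in control 1, 2 and 3. All 3 had control 1 inside the KO range, with KO 2 the lowest library. Stfa2l1 rested on 2, 3 and 3 implied reads in KO 1, 2 and 3, and as one of a cluster of near-identical stefin genes its reads may be shared, which leaves its level uncertain. Ltb4r1, the receptor for the attractant leukotriene B4, measured 9.02, 5.23 and 11.5 FPKM in KO 1, 2 and 3 and 8.66, 29.8 and 53.8 FPKM in control 1, 2 and 3, again with control 1 inside the KO range.

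Several surface genes of mature cells departed from that order. Il1r2, the decoy receptor for interleukin 1, measured 4.14, 8.67 and 1.40 FPKM in KO 1, 2 and 3 and 14.8, 17.6 and 12.0 FPKM in control 1, 2 and 3. It was the only one of the 32 with control 3 below control 1, and its mean was 4.74 ± 3.68 FPKM in KO and 14.8 ± 2.80 FPKM in control libraries (SD, n = 3 each). Its log2 difference, -1.67 (SE 0.52, limma adjusted p = 0.417), was -1.68 against control 1 alone and -0.69 with KO 2 as the only KO library. Clec4d and Clec4e, neighbouring C-type lectin receptors on chromosome 6 that monocytes carry too, were higher in control 2 than in control 3. Clec4d measured 66.7, 30.9 and 177 FPKM in KO 1, 2 and 3 and 109, 828 and 539 FPKM in control 1, 2 and 3. Clec4e measured 3.06, 16.5 and 2.61 FPKM in KO 1, 2 and 3 and 12.8, 69.6 and 41.5 FPKM in control 1, 2 and 3. The neighbours ordered the KO libraries in opposite ways, since KO 2 was the lowest for Clec4d and the highest for Clec4e. Ly6g, the defining surface antigen of mouse neutrophils, measured 0.310, 0.145 and 0.353 FPKM in KO 1, 2 and 3 and 0.807, 6.57 and 16.4 FPKM in control 1, 2 and 3. Trem1, an activating receptor of myeloid cells, ranged from 0.111 to 0.273 FPKM in KO and from 0.958 to 8.17 FPKM in control libraries. Neither Ly6g nor Trem1 reached 1 FPKM in 3 libraries, so they were not tested, and Ly6g rested on 1 to 2 implied reads in each KO library.

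The 3 genes that other myeloid cells share had every KO library below every control. Lyz2, lysozyme, which monocytes and macrophages make in large amounts, measured 628, 254 and 1590.05 FPKM in KO 1, 2 and 3 and 1699.8, 3932 and 4208 FPKM in control 1, 2 and 3. Itgam, the integrin chain CD11b, measured 2.39, 1.78 and 3.64 FPKM in KO 1, 2 and 3 and 7.83, 49.1 and 66.5 FPKM in control 1, 2 and 3. Anxa1, annexin A1, an anti-inflammatory protein that T cells can express as well, measured 12.8, 16.4 and 30.4 FPKM in KO 1, 2 and 3 and 37.1, 144 and 354 FPKM in control 1, 2 and 3. KO 3 and control 1 were close for Lyz2, so the separation of the groups in that gene was narrow. Control 2 and 3 held 2.31-fold and 2.48-fold the Lyz2 level of control 1. The log2 differences were -2.26 for Lyz2 (SE 0.75), -3.14 for Itgam (SE 0.77) and -2.67 for Anxa1 (SE 0.81), each with a limma adjusted p of 0.417.

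Control 2 and control 3 both had high levels of every stage, and the primary and specific granule genes differed between them in opposite directions. The mean log2(FPKM + 1) was 8.71 in control 2 and 7.88 in control 3 for primary granule genes, and 6.93 in control 2 and 8.19 in control 3 for specific granule genes. All 5 primary granule genes were higher in control 2, with control 3 at 0.474-fold (Elane) to 0.745-fold (Mpo) of its level. All 9 specific granule genes were higher in control 3, from 1.08-fold for Hp to 5.63-fold for Ltf. Over all genes averaging at least 1 FPKM, 48.3% were higher in control 3 by any amount, and the median ratio was 1.01. Of the later genes, Mmp9 was 3.83-fold and S100a8 1.70-fold higher in control 3, whereas Mmp8 was at 0.661-fold and Il1r2 at 0.682-fold, and 8 of the 11 mature genes were higher in control 3. Each of the 32 genes had at least 93 implied reads in both libraries. These are 2 single libraries, so the contrast has no replicate and no test.

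**Figure D3:**
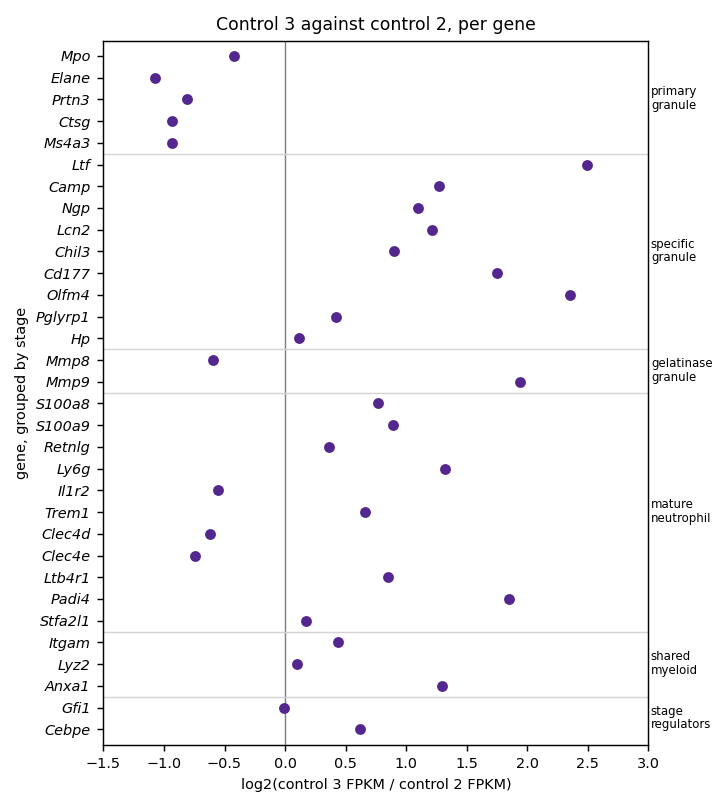
Log2 of the ratio of control 3 to control 2 FPKM for each of the 32 genes, grouped by stage; the vertical line marks equal levels. The 5 primary granule genes lie left of the line and the 9 specific granule genes right of it, while gelatinase and mature genes fall on both sides.

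Within single libraries the balance of stages was compared as the mean log2(FPKM + 1) of each stage. The primary minus specific granule difference was 0.53, 0.42 and 1.03 in KO 1, 2 and 3 and 0.39, 1.79 and -0.31 in control 1, 2 and 3, so that the groups overlapped and the widest gap was between control 2 and control 3. Gelatinase minus mature genes gave -0.04, -0.11 and -0.40 in KO 1, 2 and 3 and 0.89, -0.02 and 0.21 in control 1, 2 and 3. Here the groups did not overlap, although KO 1 and control 2 nearly met. No background over other genes was set beside this difference, which rests on 2 gelatinase genes. Under the 95th percentile of the sensory receptor genes lay 1 of these 2 in both KO 1 and KO 3. So did 7 of the 11 mature genes in KO 1 and 6 in KO 3. Primary minus mature genes gave 0.61, 0.08 and 1.44 in KO 1, 2 and 3 and 0.07, 2.05 and 0.79 in control 1, 2 and 3, and these groups overlapped, as they did for primary minus gelatinase and for specific minus mature genes. Control 1 was the only library in which the gelatinase mean, 4.38, exceeded that of each of the 3 other stages, and Mmp8 alone of its 2 genes was high there. As a ratio of FPKM, Elane to Ltf was 6.84, 7.55 and 9.81 in KO 1, 2 and 3 and 3.04, 14.7 and 1.24 in control 1, 2 and 3. In KO 2 this ratio rested on 28 reads of Elane and 13 of Ltf. In KO 1 and KO 3 the Ltf values, 3.39 and 6.17 FPKM, lay below and just above the 95th percentile of the sensory receptor genes. The part of that background in the ratio was not tested.

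**Figure D4:**
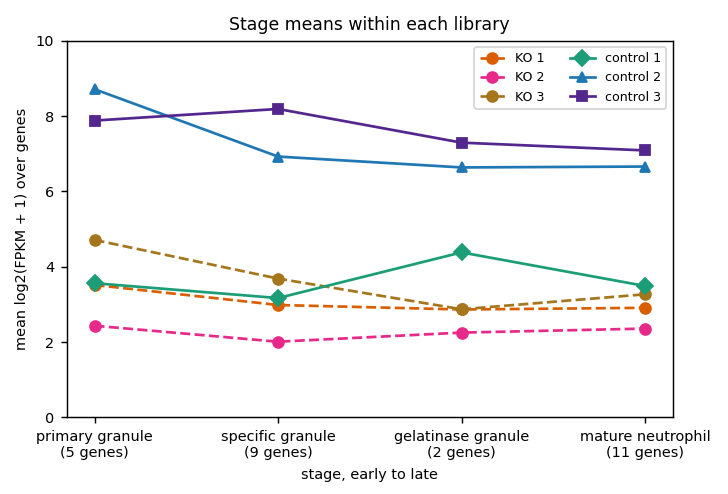
Mean log2(FPKM + 1) over the genes of 4 stages, ordered early to late, with 1 line per library (dashed for KO, solid for control). Control 2 is highest at the primary granule stage and control 3 at the specific granule stage. Control 1 lies within the KO range at both of these stages, and above every KO library at the gelatinase stage (4.38) and the mature stage (3.49).

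The promoters of 6 genes are printed as examples from the stages that differed in opposite directions between control 2 and control 3: Mpo, Elane and Prtn3 of the primary and Ltf, Ngp and Lcn2 of the specific granules. Each is the RefSeq window of 300 bases, 250 before and 50 after the gene start, on GRCm38.p6. Capitals mark TTGCNNAA, a form of the C/EBP binding motif, and GAGGAAG, a form of the PU.1 motif, on either strand; both factors act in granulocyte development, and the motifs do not share letters in these windows.
Mpo (chr11:87793534-87793833, plus strand): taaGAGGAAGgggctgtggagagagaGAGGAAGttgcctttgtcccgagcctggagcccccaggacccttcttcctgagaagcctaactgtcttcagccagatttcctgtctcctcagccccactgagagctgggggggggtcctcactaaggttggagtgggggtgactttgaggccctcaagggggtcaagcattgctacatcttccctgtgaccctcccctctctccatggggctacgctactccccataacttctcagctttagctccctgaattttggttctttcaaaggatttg
Elane (chr10:79886062-79886361, plus strand): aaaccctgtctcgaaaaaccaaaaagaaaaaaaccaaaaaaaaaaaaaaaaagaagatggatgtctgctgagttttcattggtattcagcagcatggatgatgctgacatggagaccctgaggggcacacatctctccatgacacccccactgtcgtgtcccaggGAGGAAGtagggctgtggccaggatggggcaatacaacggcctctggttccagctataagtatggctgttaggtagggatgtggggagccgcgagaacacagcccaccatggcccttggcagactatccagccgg
Prtn3 (chr10:79879417-79879716, plus strand): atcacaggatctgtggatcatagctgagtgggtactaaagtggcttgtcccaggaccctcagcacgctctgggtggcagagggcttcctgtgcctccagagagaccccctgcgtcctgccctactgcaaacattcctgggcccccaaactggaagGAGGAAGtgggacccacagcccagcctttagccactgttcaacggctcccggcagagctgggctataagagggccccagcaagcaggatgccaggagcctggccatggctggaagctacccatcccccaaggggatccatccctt
Ltf (chr9:111019042-111019341, plus strand): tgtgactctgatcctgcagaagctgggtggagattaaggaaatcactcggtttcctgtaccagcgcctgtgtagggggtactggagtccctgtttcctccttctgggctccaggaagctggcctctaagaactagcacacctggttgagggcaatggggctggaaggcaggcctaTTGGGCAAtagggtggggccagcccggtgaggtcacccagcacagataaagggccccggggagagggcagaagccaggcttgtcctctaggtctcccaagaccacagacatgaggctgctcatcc
Ngp (chr9:110419558-110419857, plus strand): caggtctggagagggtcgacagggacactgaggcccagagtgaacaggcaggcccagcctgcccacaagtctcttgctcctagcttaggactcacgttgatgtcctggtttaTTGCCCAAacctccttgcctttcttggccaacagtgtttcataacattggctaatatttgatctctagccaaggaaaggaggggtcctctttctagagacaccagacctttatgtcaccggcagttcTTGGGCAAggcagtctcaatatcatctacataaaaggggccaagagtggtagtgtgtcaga
Lcn2 (chr2:32387690-32387989, minus strand): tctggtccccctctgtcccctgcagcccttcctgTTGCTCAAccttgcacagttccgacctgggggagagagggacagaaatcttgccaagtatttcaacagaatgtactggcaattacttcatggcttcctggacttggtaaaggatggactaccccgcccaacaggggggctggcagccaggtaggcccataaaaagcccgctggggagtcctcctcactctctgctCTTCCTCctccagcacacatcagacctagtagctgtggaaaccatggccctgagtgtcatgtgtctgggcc
Windows were on hand for 29 of the 32 genes, 31 windows in all. TTGCNNAA stood in 11 of these windows (35.5%), against 10.8% of all 32851 promoter windows, and GAGGAAG in 14 (45.2%), against 13.6%. The core promoter motif TATAAA, which is not tied to granulocytes, on either strand stood in 11 windows (35.5%), against 13.6%. By stage, GAGGAAG was found in 4 of 5 primary and 3 of 8 specific granule genes, and TTGCNNAA in 1 of 5 and 3 of 8. Mpo, Elane and Prtn3 hold GAGGAAG without TTGCNNAA, Ltf and Ngp hold TTGCNNAA without GAGGAAG, and Lcn2 holds both, but the genes not printed do not follow that division. Of these, Ctsg of the primary granules holds GAGGAAG and Ms4a3 holds TTGCNNAA, Pglyrp1 and Olfm4 of the specific granules hold GAGGAAG without TTGCNNAA, and Camp, Chil3 and Cd177 hold neither. A match describes letters in a window and not a bound site.

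A further 25 genes outside the set, listed for neutrophils but not all particular to them, were examined. All 25 had a lower mean log2 value in KO (median log2 difference -2.48), 0 passed limma, and for 10 every KO library lay below every control, where 7.95% of all genes averaging at least 1 FPKM did so. The 4 with the highest mean over the 6 libraries were Wfdc21, Slpi, Spi1 and Adam8, all among those 10. Wfdc21, a secreted protein with a whey acidic protein domain, measured 0.674, 3.92 and 3.83 FPKM in KO 1, 2 and 3 and 11.1, 209.7 and 269 FPKM in control 1, 2 and 3. Slpi, an inhibitor of elastase, measured 5.70, 28.1 and 21.4 FPKM in KO 1, 2 and 3 and 36.4, 222 and 115 FPKM in control 1, 2 and 3. Spi1, which encodes PU.1, measured 29.8, 11.3 and 48.3 FPKM in KO 1, 2 and 3 and 49.0, 92.5 and 110.5 FPKM in control 1, 2 and 3. In Adam8, a metalloprotease, the groups were 34.2, 11.4 and 31.8 FPKM in KO 1, 2 and 3 and 63.4, 70.7 and 99.8 FPKM in control 1, 2 and 3. For all 4 genes control 1 lay above every KO library, narrowly so for Spi1. For the other 15 genes the groups overlapped or shared values at 0. Asprv1, a protease, had the smallest difference, with 15.3, 1.54 and 18.3 FPKM in KO 1, 2 and 3 and 3.33, 14.8 and 12.9 FPKM in control 1, 2 and 3 (log2 difference -0.08, SE 0.90). G0s2 measured 1.34, 1.80 and 1.91 FPKM in KO 1, 2 and 3 and 0.970, 54.5 and 60.8 FPKM in control 1, 2 and 3, so control 1 was its lowest library. Fcnb, a ficolin, measured 0.655, 0.102 and 0.497 FPKM in KO 1, 2 and 3 and 0.126, 46.4 and 69.5 FPKM in control 1, 2 and 3, with control 1 inside the KO range. These 3 genes were chosen after their values were seen.

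Markers of other cell types moved with the same libraries. The 4 eosinophil markers summed to 41.3, 16.5 and 134 FPKM in KO 1, 2 and 3 and 23.3, 1295 and 1646 FPKM in control 1, 2 and 3, nearly all of it Prg2, the granule major basic protein, with Siglecf at 0 in KO 3 and Ccr3 at 0 in KO 1. The 5 basophil and mast cell markers, led by the protease Prss34, summed to 69.8, 144 and 247 FPKM in KO 1, 2 and 3 and 196, 1903 and 1241 FPKM in control 1, 2 and 3, with none at 0. For the 6 erythroid markers, led by the globin Hbb-bs, the sums were 4.03, 2.63 and 30.9 FPKM in KO 1, 2 and 3 and 5.94, 2138 and 984 FPKM in control 1, 2 and 3. These 3 lists shared the low level of control 1.

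Monocyte markers, 6 genes led by Ly6c2, summed to 45.6, 137 and 47.2 FPKM in KO 1, 2 and 3 and 94.8, 361 and 269 FPKM in control 1, 2 and 3, with none at 0. Most of the sum in control 2 and 3 was Ly6c2, at 266 and 199 FPKM. Control 1 lay below control 2 and 3 for 3 of the 6, Ly6c2, Ccr2 and F13a1. It lay above both for Ms4a6c, Cx3cr1 and Ms4a4c, and Ms4a4c was highest in KO 2, at 68.1 FPKM (log2 difference 0.62). Macrophage markers did not follow the granule genes: 10 genes led by Cd68 summed to 261, 75.0 and 473 FPKM in KO 1, 2 and 3 and 279.6, 406 and 337 FPKM in control 1, 2 and 3, so the groups overlapped and KO 3 was the highest library. The 5 B cell markers, led by Cd79b, summed to 71.2, 42.6 and 51.4 FPKM in KO 1, 2 and 3 and 38.3, 14.6 and 9.94 FPKM in control 1, 2 and 3. T cell markers, given above and led by Cd8b1, were lowest in control 2 and 3, the libraries with the most neutrophil RNA. As medians of the log2 difference, KO minus control, the lists stood at -1.92 (eosinophil), -2.57 (basophil and mast cell), -3.29 (erythroid), -0.71 (monocyte), -0.45 (macrophage), 0.97 (B cell) and 1.31 (T cell), and 0 genes of any passed limma. Their part in the differences of the granule genes was not tested.

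**Figure D5:**
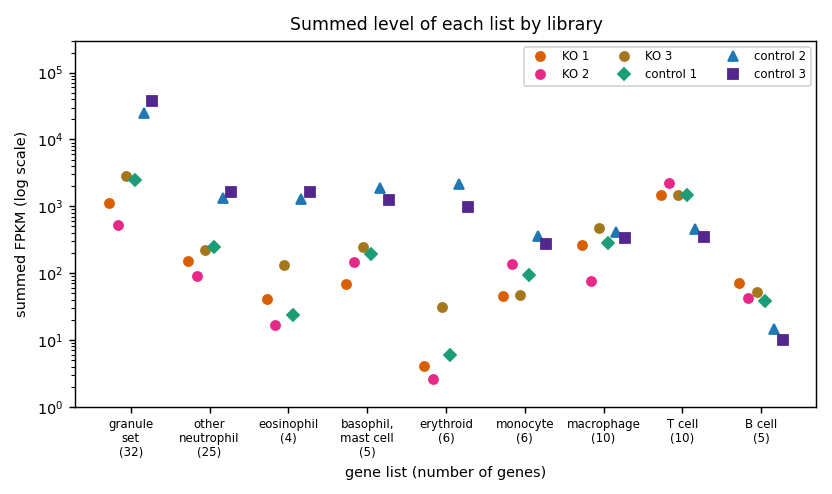
Summed FPKM (log axis) of the granule set and of 8 marker lists in each KO and control library. Control 2 and 3 sit far above the other 4 libraries for granulocyte and erythroid lists and below them for T and B cell lists, and the macrophage list shows KO 3 at 473 FPKM as its highest point.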

How the data were processed

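RNA-seq of splenic CD8+ T cells was deposited as 6 tables, 1 per library, of 35458 Ensembl gene models. The unit was read from the values: the authors' deposited values behave as FPKM. Per the submitters' processing notes, the tools were Bowtie2 2.2.3, HTSeq 0.6.0 and HISAT2 2 and the build was mm8, without their roles. How FPKM were computed, with which annotation and strand setting, is not given in the sources used here. Symbols, gene types and exon lengths came from GENCODE M21, which matched 35358 models, so no coordinates were joined to the values. Exons of 5 of the 32 genes overlap another gene: Prtn3 (Plppr3, 0.688 to 8.36 FPKM), Gfi1 (A430072P03Rik, at most 2.47 FPKM), Mpo, Olfm4 and Itgam (others at most 1.13 FPKM).

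FPKM multiplied by exon length gave near-whole multiples of a unit specific to each library, within 0.02 read for 92.1% to 93.4% of values under 200 reads. Implied reads summed to 8.31% to 12.3% more than the totals, so they are approximate. A floor of 3 reads in 1 kb was 0.877, 0.204 and 0.998 FPKM in KO 1, 2 and 3 and 0.253, 0.200 and 0.200 FPKM in control 1, 2 and 3, counting error only. No 2 libraries of a group agreed within sampling noise (chi-square per gene 14.3 to 169).

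The 13956 genes reaching 1 FPKM in 3 or more libraries were tested as log2(FPKM + 1) with limma 3.58.1 (R 4.3.3), using a variance trend, genotype alone in the model and a Benjamini-Hochberg threshold of 0.05. The scale understates changes of low genes. The smallest exact permutation p of 3 against 3 is 0.1, so none was used. For counts of groups that do not overlap and for medians, all genes averaging at least 1 FPKM (16821) were the background, since that choice does not depend on the group. The fit was also run on simulated libraries whose replicates shared the same mean for each gene. That setting lacks the spread among these libraries, so it does not test the fit on them. The members, lists and tests were chosen with earlier results of these data known. Genes reaching 50 FPKM in any library are given in every library, with those that define a stage and with Gfi1, Olfm4 and Ly6g, and Trem1 is given by range. From each marker list the most abundant gene is named, from the further neutrophil list 4, and the choice of other named markers followed their values. The other settings are given in the closing section. Software was Python 3.11.15 with pandas 2.3.3, numpy 2.4.6 and matplotlib 3.10.9.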

Additional observations from a re-analysis of the deposited data

How the results depend on the processing

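Settings planned were a pseudocount of 0.1, no filter on low values, quantile normalization over all gene models, a common protein-coding sum, the replicate number as a block and each library left out in turn. With each library left out in turn, limma called 0 to 1821 genes and 0 to 15 of the granule genes, 10 to 32 of the 32 genes had every KO library below every control, and the median log2 difference over them ran from -4.39 to -2.32. Of these, 363 genes passed without control 1, 217 of them lower in KO, and 1821 without KO 2, 134 of them lower in KO. The fit without KO 2 kept KO 1 and KO 3, the shallow libraries with the higher sensory receptor background. Without KO 3, 19 genes of the set did not overlap. Comparisons without control 2 and 3 (median -0.46, 10 genes not overlapping) and without KO 1 and 3 (median -3.53, 28 genes) were chosen after the data were seen. They are plain differences of mean log2 values, with no fit and no test.

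The other scalings kept every direction. The median over the 32 genes was -3.54 with a pseudocount of 0.1, -3.27 with quantile normalization and -2.97 with the protein-coding sum, while the median over all tested genes was 0.10, -0.29 with quantile normalization and 0.15 with the protein-coding sum. Among 352 values of single genes under other settings, 0 changed sign and 19 passed limma where the full fit had not, all 19 in fits without control 1 or KO 2. The replicate block called 0 genes, with a median of -3.03. The same-numbered libraries' deviations correlated at 0.11, 0.02 and 0.02 across genes and KO 3 correlated best with control 2, so the numbers were not taken as pairs. Depth limits the KO 1 and KO 3 values of the lowest genes.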

Other observations

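Stefin genes beyond Stfa2l1, cytosolic protease inhibitors that lie together on chromosome 16, were at or near 0 outside control 2 and 3. Stfa1 measured 0, 0 and 2.39 FPKM in KO 1, 2 and 3 and 0, 30.3 and 19.7 FPKM in control 1, 2 and 3. Stfa2 was at 0 FPKM in each KO library and measured 0.998, 27.5 and 5.03 FPKM in control 1, 2 and 3, and Stfa3 measured 0, 0 and 1.62 FPKM in KO 1, 2 and 3 and 0.820, 11.5 and 3.55 FPKM in control 1, 2 and 3. All 3 were higher in control 2 than in control 3, unlike Stfa2l1 at 58.9 and 66.5 FPKM. Reads shared among these similar genes leave each value uncertain. These genes were chosen after their values were seen.

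Lrg1, a glycoprotein packed in granules, was listed at 0 FPKM in KO 1, 2 and 3 and in control 1, against 21.1 and 33.0 FPKM in control 2 and 3. The factors Cebpa and Cebpd, which act before and after Cebpe in granulocyte development, were also highest in control 2 and 3. Cebpa measured 17.0, 6.74 and 26.8 FPKM in KO 1, 2 and 3 and 21.4, 84.1 and 77.0 FPKM in control 1, 2 and 3. Cebpd measured 1.01, 0.473 and 2.84 FPKM in KO 1, 2 and 3 and 2.55, 25.1 and 33.3 FPKM in control 1, 2 and 3. Control 2 was the higher of these 2 controls for Cebpa, by little, and control 3 for Cebpd, in 2 single libraries with no test. Lrg1, Cebpa and Cebpd were chosen after their values were seen.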
